A study of Mus musculus with 6 samples.

Results

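The sequences described here joined a T cell receptor α variable segment to *Traj35*, *Traj34*, *Traj32* or *Traj31*, 4 joining segments that stand close together near the middle of the *Traj* array. They were the sequences whose J assignment listed only 1 of these genes, 408721 of the 3675237 sequences in 6 libraries (11.1%). *Traj32* (TRAJ32 in the calls) contributed 162880 of them, *Traj31* (TRAJ31) 108344, *Traj34* (TRAJ34) 100754 and *Traj35* (TRAJ35) 36743. Another 33 sequences listed 1 of these genes together with a different segment and were left out. The segments were chosen by their shares of sequences and their allele calls in these same libraries, so shares, ratios between genotypes and allele calls are given as a description, without a test.

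The libraries were *Trav19*, *Trav9* and *Trav11* amplicons from pre-selection double-positive (DP) thymocytes, sorted as CD4+CD8α+TCRβ-CD69-CD5- cells from the thymus of WT mice of the BALB/c strain and of SKG mice, whose *Zap70* gene carries a spontaneous point mutation that weakens signaling from the T cell receptor. According to the methods, both genotypes descended from a cross of BALB/cJ with SKG mice, after which WT and SKG lines were bred apart. RNA was made into cDNA and amplified between the *Trav* segment and the constant region, although the labels give the molecule as genomic DNA. Each genotype and amplicon had 1 library, and the number and age of the mice behind it were not given in the sources used here. The SKG and WT mice were therefore compared between single libraries, without replicates, and effects of library and of genotype cannot be told apart.

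The *Tcra* locus holds its *Trav* segments upstream of a long row of *Traj* segments, which are numbered downward in the direction of the constant gene. A DP thymocyte can rearrange the same allele several times, each time joining a more upstream *Trav* to a more downstream *Traj*, so that high *Traj* numbers tend to be used early and low numbers late. The recombinase finds each *Traj* through a recombination signal, a heptamer directly before the coding bases and a nonamer further upstream. *Traj33*, which lies between *Traj34* and *Traj32*, is known as the joining segment of mucosal-associated invariant T cells.

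The 4 segments are printed below with the signal that precedes each of them. The bases are those of a reference genome, and the bases that the WT and SKG mice carried were not examined. Nor was it tested which bases set the use of these segments apart. The segments were read from the plus strand of chromosome 14 of NCBIM37, at chr14:54803421-54803513 for *Traj35*, chr14:54804346-54804431 for *Traj34*, chr14:54805748-54805841 for *Traj32* and chr14:54807542-54807626 for *Traj31*, each a single exon in the GENCODE annotation. Each line runs from the nonamer over 12 bases of spacer to the heptamer and on through the coding bases. The first capitals mark the heptamer, and the later capitals mark a stretch that begins with TTNGG and, after 4 more bases, ends with GGN, the pattern of the conserved core of joining segments.
Traj35: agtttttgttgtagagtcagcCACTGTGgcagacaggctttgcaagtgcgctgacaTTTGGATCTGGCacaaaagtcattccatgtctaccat
Traj34: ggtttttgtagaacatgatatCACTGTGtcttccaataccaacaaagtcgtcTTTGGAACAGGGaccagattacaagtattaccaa
Traj32: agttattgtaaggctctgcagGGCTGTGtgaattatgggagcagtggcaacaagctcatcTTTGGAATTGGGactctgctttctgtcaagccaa
Traj31: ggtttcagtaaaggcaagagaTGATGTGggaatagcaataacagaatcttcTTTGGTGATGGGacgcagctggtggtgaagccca

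The 4 segments cover 4.178 kb from the start of *Traj35* to the end of *Traj31*, and *Traj31* ends 32.57 kb before the constant gene *Trac*. Their coding parts have 65 bases in *Traj35*, 58 in *Traj34*, 66 in *Traj32* and 57 in *Traj31*. The core pattern was present in these and in 45 of 59 annotated *Traj* segments overall (76.3%), searched on the coding strand alone. The heptamer of *Traj35* and of *Traj34* was CACTGTG without a mismatch, as in 16 of the 59 segments (27.1%). *Traj32* differed from that heptamer at 2 positions, as 27 segments did at 2 or more (45.8%). *Traj31* differed at 3 positions, as 14 segments did at 3 or more (23.7%). The nonamer GGTTTTTGT was present in full at 3 of the 59 segments (5.08%), *Traj34* among them, while *Traj35* had 1 mismatch and *Traj32* and *Traj31* had 2 each. These matches describe letters at the annotated starts in the reference genome, and how well a signal works was not measured.

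Shares are given as a percentage of the sequences with the same V gene, genotype and functionality class that listed a single *Traj* gene. A productive sequence has an open reading frame across the junction, and the classes are those of the deposited calls. Shares are described for 8 V genes that the amplicons targeted, each with at least 1000 productive sequences in both genotypes, namely *Trav19*, *Trav11* (counted with its duplicate *Trav11d*), and *Trav9-2*, *Trav9-3*, *Trav9-4*, *Trav9d-2*, *Trav9d-3* and *Trav9d-4*. They carried 399290 of the 408721 sequences, and the other 9431 listed other V genes or several. Of these, *Trav4d-3* also reached 1000 productive sequences in both genotypes but was not an amplicon target. Between 33917 and 252048 productive sequences stood behind each share. The 95% Wilson confidence intervals (CI) cover counting error only, because PCR products that carry no molecular identifiers cannot be counted as separate molecules. The 6 *Trav9* genes came from the same pair of libraries and are not replicates of each other.

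In NCBIM37, *Trav19* is the closest of the located V genes to the 4 segments, 338 kb before *Traj35*. *Trav9-4* lies 507 kb, *Trav9-2* 592 kb and *Trav11* 664 kb before it. *Trav9d-4*, *Trav9d-3*, *Trav9d-2* and *Trav11d* lie in the duplicated upstream part of the locus, 1200, 1263, 1291 and 1359 kb away.

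Together the 4 segments took 14.4% (95% CI 14.3 to 14.6) of the productive *Trav11* sequences of WT cells, against 17.6% for SKG cells (95% CI 17.4 to 17.8). For *Trav19* the WT library gave 7.95% (95% CI 7.84 to 8.06) and the SKG library 8.66% (95% CI 8.55 to 8.77). Among the *Trav9* genes the combined share ran from 7.75% (*Trav9d-2*, WT) to 13.8% (*Trav9d-4*, WT). The 2 *Trav11* libraries thus had the highest combined shares among the 16 combinations of V gene and genotype, and the median was 11.5%.

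*Traj32* was the most used of the 4 in *Trav11* sequences, whereas *Traj31* was used less with *Trav11* than with any other V gene. *Traj32* made up 9.24% of productive *Trav11* sequences in WT (12725 of 137708) and 10.8% in SKG (16468 of 152878). In the other 7 V genes its share lay between 2.38% and 4.83%, so that no value overlapped with those of *Trav11*. Unproductive *Trav11* sequences used *Traj32* at 9.21% in WT and 8.54% in SKG, against 1.796% to 4.91% with the other V genes. Relative to the median of the other 7 V genes, the productive *Trav11* share was 2.23 times as large in WT and 2.87 times in SKG. The unproductive share was 2.36 times as large in WT and 2.35 times in SKG.

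For *Traj31* the *Trav11* values were the lowest. Its share of productive *Trav11* sequences was 0.599% in WT (825 sequences) and 1.04% in SKG (1584 sequences). The other V genes used it at 1.89% (*Trav19*, WT) to 4.97% (*Trav9-2*, SKG), and the *Trav11* share was 0.185 times the median of the others in WT and 0.276 times in SKG. The unproductive class showed the same separation, with 0.617% and 0.924% in *Trav11* against 2.45% to 4.95% elsewhere. *Traj31* spanned an 8.30-fold range over the 16 combinations, compared with 4.52-fold for *Traj32*, 2.97-fold for *Traj34* and 2.89-fold for *Traj35*. Without *Trav11* the range of *Traj31* was 2.63-fold.

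Being outside the range of all other V genes was common among segments in *Trav11* sequences. Of 43 segments among productive sequences, 34.9% lay below all 7 other V genes in WT and 37.2% in SKG, as *Traj31* did. Another 23.3% in WT and 27.9% in SKG lay above all 7, as *Traj32* and its neighbor *Traj33* did in both genotypes and *Traj34* did in SKG alone. Of the 4 segments, *Trav19* placed none outside the range of the other V genes among productive sequences, compared with 37.2% of all segments below and 11.6% above them in WT, and with 27.9% below and 9.3% above them in SKG. Among unproductive sequences *Trav19* lay below all 7 others for *Traj35* in WT (0.439%, next lowest 0.482%), and for *Traj34* (1.57%, next lowest 2.45%) and *Traj32* (2.55%, next lowest 3.27%) in SKG. How many of all segments did so in the unproductive class was not counted, so these placements may be common there too.

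**Figure D1:**
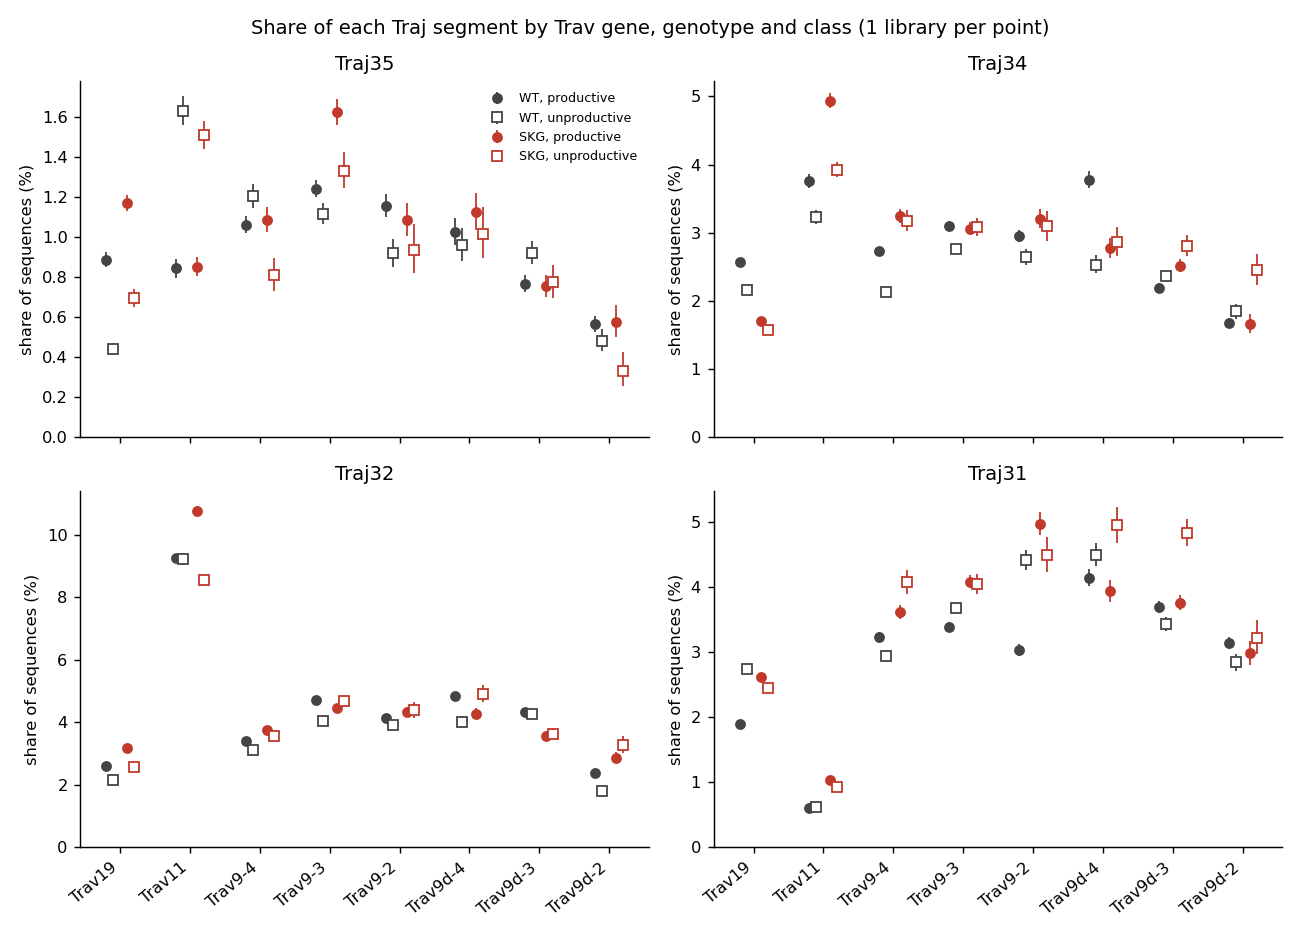
Share (%) of *Traj35*, *Traj34*, *Traj32* and *Traj31* by V gene (x axis) in WT (dark) and SKG (red), for productive (filled circles) and unproductive sequences (open squares), with 95% Wilson intervals that cover counting error only and 1 library behind each point. *Trav11* stands above all other V genes for *Traj32* and below them for *Traj31* in both genotypes and classes.

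Because both segments were counted in the same set of sequences, their ratio does not depend on the total. In *Trav11* there were 15.4 productive *Traj32* sequences for each *Traj31* sequence in WT (95% CI 14.4 to 16.5), whereas SKG had 10.4 (95% CI 9.87 to 10.9). Unproductive *Trav11* sequences gave 14.9 in WT and 9.24 in SKG. In the other V genes the ratio of productive sequences lay between 0.759 (*Trav9d-2*, WT) and 1.39 (*Trav9-3*, WT). Unproductive sequences of these V genes gave between 0.632 (*Trav9d-2*, WT) and 1.24 (*Trav9d-3*, WT). *Traj32* and *Traj31* lie next to each other in the array. Their counts were closer to each other with these 7 V genes than with *Trav11*, although not equal in each.

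Over all 8 V genes, the productive shares of *Traj34* and *Traj35* varied less than those of *Traj32* and *Traj31*. Among unproductive sequences *Traj35* spanned 4.97-fold, near the 5.13-fold of *Traj32*. Without *Trav11*, *Traj35* had the widest range of the 4, 2.89-fold among productive and 4.06-fold among unproductive sequences. The next widest were 2.63-fold (*Traj31*, productive) and 2.74-fold (*Traj32*, unproductive). The productive share of *Traj34* ran from 1.66% (*Trav9d-2*, SKG) to 4.94% (*Trav11*, SKG), with a median of 2.86% over the 16 combinations. The WT value of *Trav9d-4* (3.78%) and that of *Trav11* (3.75%) had overlapping intervals just below the highest share. *Trav19* had a lower share in SKG (1.70%) than in WT (2.57%), and its SKG interval overlapped that of *Trav9d-2*.

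*Traj35* was the least used of the 4 outside *Trav11* in both classes. Its productive share was highest with *Trav9-3*, at 1.62% in SKG and 1.24% in WT, and lowest with *Trav9d-2*, at 0.562% in WT and 0.572% in SKG. Most neighbors in this order had overlapping intervals, and the exceptions were the step below *Trav9-3* in SKG, the step from *Trav9d-4* to *Trav19* in WT, and the step from *Trav9d-3* to *Trav9d-2* in SKG. With *Trav11* the share of *Traj35* was 0.842% in WT and 0.850% in SKG among productive sequences but 1.63% and 1.51% among unproductive ones, the highest unproductive shares of all V genes.

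**Figure D2:**
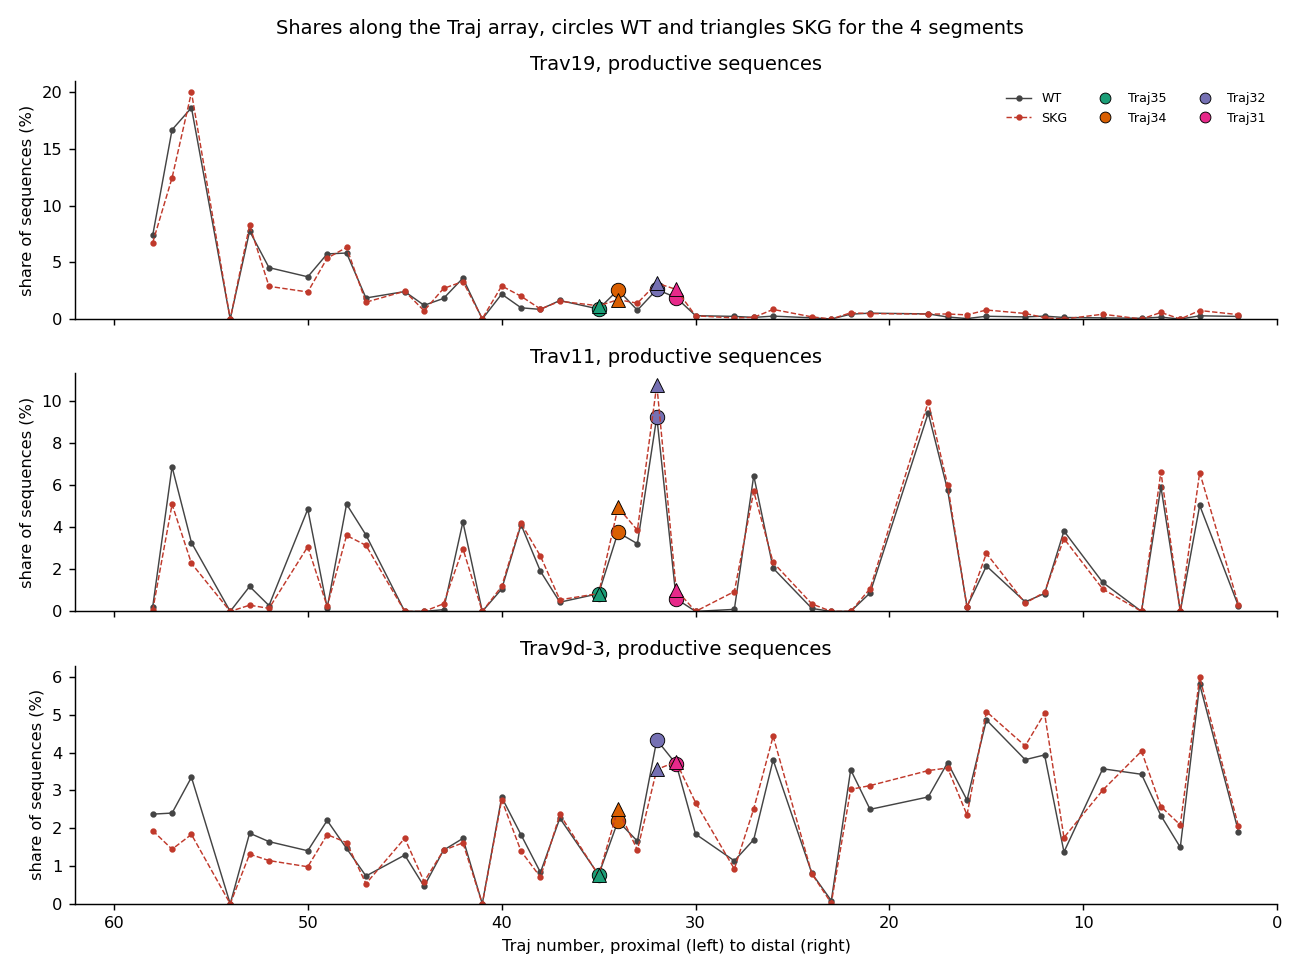
Share (%) of each *Traj* segment among productive sequences along the array, from high numbers near the *Trav* side (left) to low numbers (right), for *Trav19*, *Trav11* and *Trav9d-3* in WT (solid line) and SKG (dashed line), with the 4 segments enlarged. *Traj32* forms a peak beside a low *Traj31* with *Trav11*, whereas with *Trav9d-3* in WT the shares were 4.34% and 3.70%.

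The imbalance of *Traj35* with *Trav11* also appeared in its productive share, the percentage of the sequences of a segment that were productive. It was 38.9% in WT (95% CI 37.2 to 40.7) and reached 41.4% in SKG (95% CI 39.7 to 43.2) for *Traj35* with *Trav11*, against 55.2% and 55.6% over all segments with that V gene. Other segments were lower still, since *Traj35* ranked 32 of 37 segments in WT and 33 of 39 in SKG, counted from the highest. With the other 7 V genes *Traj35* was productive in 56.7% to 77.0% of its sequences. *Traj31* was productive in 46.3% of its *Trav19* sequences in WT, where all segments together reached 55.5%, and in 66.0% in SKG, where all segments reached 64.5%. *Traj32* lay above the value of all segments with 8 of 8 V genes in WT and with 3 of 8 in SKG. Some of these gaps were within counting error. With *Trav11* in WT it was 55.3% (95% CI 54.6 to 55.9) against 55.2% above. With *Trav9-2* in SKG it was 72.0% (95% CI 70.5 to 73.5), below 72.2% for all segments. How many other segments lay above the value of all segments was not counted. Ranked by productive share, *Traj32* was not extreme among the segments. In WT it ranked from 8 of 43 (*Trav9d-2*) to 26 of 44 (*Trav9d-3*). With *Trav9d-3* its 61.5% lay below the median segment (62.5%). In SKG it ranked from 9 of 39 (*Trav11*) to 34 of 44 (*Trav9d-4*).

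The SKG and WT shares of each segment were compared as a log2 ratio, with 0.5 added to each count. An absolute log2 ratio above 0.32 is called past the fold below, as a description of size and not as a test. *Traj31* was past this fold with 3 of 8 V genes, each time higher in SKG. Its log2 ratio was 0.79 with *Trav11* (95% CI 0.67 to 0.91), 0.71 with *Trav9-2* (95% CI 0.65 to 0.78) and 0.47 with *Trav19* (95% CI 0.41 to 0.52). Among all segments with at least 50 sequences, 30.6% were past the fold and higher in SKG with *Trav11*, 39.5% with *Trav9-2* and 42.9% with *Trav19*. With the remaining V genes the ratio of *Traj31* stayed between -0.07 (*Trav9d-2*) and 0.27 (*Trav9-3*).

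In percentage points, the *Traj31* share of SKG was higher by 1.94 in *Trav9-2* sequences (3.04% in WT and 4.97% in SKG), 0.723 in *Trav19* (1.89% and 2.61%) and 0.437 in *Trav11* (0.599% and 1.04%). The ratio with *Trav11* was thus the largest although its difference in points was the smallest of these. Among the 36 segments counted with *Trav11* it was the 4th highest. Unproductive sequences did not repeat this for each V gene. Their log2 ratio of *Traj31* was 0.58 with *Trav11* but 0.02 with *Trav9-2* and -0.16 with *Trav19*, and it was past the fold with *Trav9d-3* (0.49) and *Trav9-4* (0.47), whose productive values were 0.02 and 0.16. The shares past the fold and higher among all unproductive segments were 41% with *Trav11*, 22.7% with *Trav9d-3* and 29.5% with *Trav9-4*.

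*Traj32* stayed within this fold with all 8 V genes among productive sequences, between -0.29 (*Trav9d-3*) and 0.28 (*Trav19*). For comparison, the share of segments past the fold in either direction was 64.3% with *Trav19*, 55.6% with *Trav11*, 55.8% with *Trav9-4*, 37.2% with *Trav9-3*, 62.8% with *Trav9-2*, 34.9% with *Trav9d-4*, 37.2% with *Trav9d-3* and 67.4% with *Trav9d-2*. Among unproductive sequences *Traj32* was past the fold with *Trav9d-2* alone, at 0.87 (1.796% in WT and 3.27% in SKG), where 23.3% of all segments were past the fold and higher.

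*Traj34* differed in both directions. It was higher in SKG with *Trav11*, at 0.40 (3.75% in WT and 4.94% in SKG), and lower with *Trav19*, at -0.59 (2.57% and 1.70%), and with *Trav9d-4*, at -0.45 (3.78% and 2.77%). Of all segments, 30.6% were past the fold and higher with *Trav11*. The shares of all segments past the fold and lower were 21.4% with *Trav19* and 23.3% with *Trav9d-4*. The unproductive sequences gave 0.28 with *Trav11*, -0.46 with *Trav19* and 0.18 with *Trav9d-4*, so that the direction was the same in both classes for *Trav11* and *Trav19* but not for *Trav9d-4*. With *Trav19*, 24.4% of all segments were past the fold and lower in the unproductive class. Unproductive *Traj34* sequences were also past the fold and higher with *Trav9-4* (0.57) and *Trav9d-2* (0.41), as were 29.5% and 23.3% of all segments.

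*Traj35* was past the fold and higher in SKG with *Trav19*, at 0.40 (0.884% in WT and 1.17% in SKG), and with *Trav9-3*, at 0.39 (1.24% and 1.62%). Of all segments, 42.9% were past the fold and higher with *Trav19* and 23.3% with *Trav9-3*. With *Trav11* the ratio of *Traj35* was 0.01 (95% CI -0.10 to 0.13). Unproductive *Traj35* sequences were higher with *Trav19*, at 0.66, where 36.6% of all segments were past the fold and higher. They were lower with *Trav9-4* (-0.57) and *Trav9d-2* (-0.54), where 22.7% and 32.6% of all segments were past the fold and lower.

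Over the 4 segments the median log2 ratio of productive sequences was 0.34 with *Trav19*, where all segments had a median of 0.10, and 0.31 with *Trav11*, where all segments had 0.09. In unproductive sequences the median over the 4 segments was 0.04 with *Trav19* (all segments 0.13) and 0.09 with *Trav11* (all segments 0.06). With the *Trav9* genes the productive median ran from -0.12 (*Trav9d-4*, all segments -0.09) to 0.15 (*Trav9-4*, all segments 0.18). The combined share, SKG minus WT, differed by 3.16 percentage points with *Trav11* (95% CI 2.90 to 3.43), 2.32 with *Trav9-2* and 0.702 with *Trav19* (95% CI 0.547 to 0.857). The difference was -1.65 with *Trav9d-4* and -0.413 with *Trav9d-3* (95% CI -0.655 to -0.170). In unproductive *Trav11* sequences the combined share was 14.7% in WT and 14.9% in SKG, a difference of 0.211 points (95% CI -0.0776 to 0.499). The difference had the opposite direction in unproductive sequences with *Trav19* (-0.235 points), *Trav9d-3* (1.08 points) and *Trav9d-4* (1.73 points). The productive and the unproductive log2 ratio had the same sign with 5 of 8 V genes for *Traj31*, *Traj32* and *Traj34* and with 4 of 8 for *Traj35*.

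**Figure D3:**
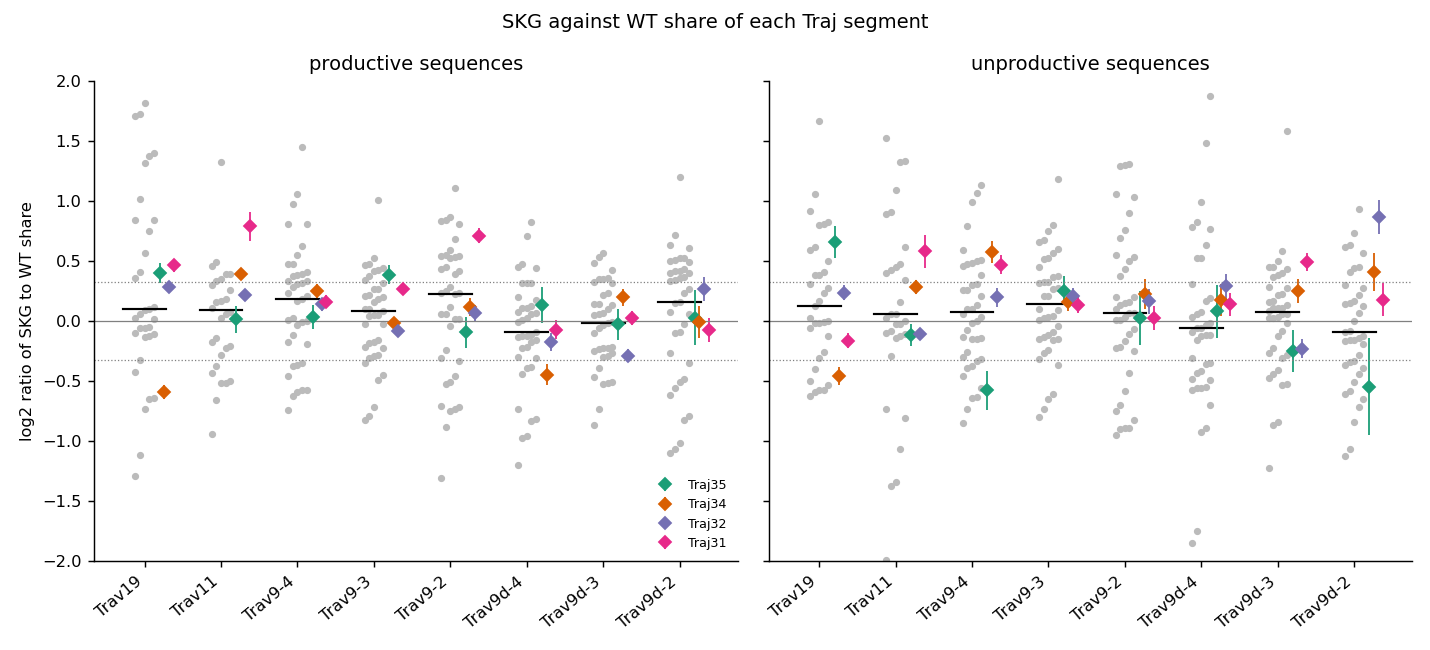
Log2 of SKG share over WT share for the 4 segments (coloured diamonds with 95% intervals of counting error) and all other segments with at least 50 sequences (gray), by V gene, for productive (left) and unproductive sequences (right). Black bars are medians of all segments, dotted lines mark the fold used for the counts (0.32 either way), and up to 5 segments per V gene lie beyond the axis. *Traj31* reaches 0.79 with *Trav11* and 0.71 with *Trav9-2* on the left, and 0.58 and 0.02 on the right.

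The shares of the segments over the 16 combinations were set beside those of 34 other segments with at least 50 sequences in each. This is a description, since the points come from 6 libraries and shares of a whole constrain each other. *Traj34* and *Traj32* were each most like *Traj33*, with a Spearman's rho of 0.89, and then like *Traj38* (0.86 with *Traj34*) and *Traj34* (0.84 with *Traj32*). *Traj35* was most like *Traj40* (0.76) and *Traj43* (0.62). *Traj31* was most like *Traj24* (0.79) and *Traj26* (0.76), which lie further downstream.

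*Traj31* had a rho of 0.19 with its neighbor *Traj32*, 0.13 with *Traj34* and 0.26 with *Traj35*. Without *Trav11*, over 14 combinations, it was 0.77 with *Traj32*, 0.62 with *Traj34* and 0.16 with *Traj35*, so the low values with *Traj32* and *Traj34* rested on the *Trav11* libraries. The neighbor *Traj33* itself took 3.22% of productive *Trav11* sequences in WT and 3.86% in SKG, and between 0.740% and 1.81% with the other V genes.

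The J assignment also named an allele. IMGT/HighV-QUEST names the reference allele that is most similar to a sequence and lists several when they score the same. Of 53 segments named in the calls, 10 had 2 alleles among them, and these included all 4 of the segments. Allele 02 was the more frequent for *Traj31*, *Traj32* and *Traj35*, the only 3 segments of the 10 where it was, and allele 01 was the more frequent for *Traj34*.

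For 3 of the segments the call was close to uniform. Among sequences that listed a single allele, the less frequent allele made up at most 0.0405% of *Traj32*, at most 0.0567% of *Traj34* and between 0.383% and 0.840% of *Traj35* in any library. *Traj34* listed both alleles in 0.864% to 1.55% of sequences, *Traj32* in at most 0.0335%, and *Traj35* in none of its 36743 sequences.

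*Traj31* stood apart from these. Its allele 01 made up 12.2% of single-allele sequences in WT *Trav19*, 12.1% in WT *Trav11* and 12.7% in WT *Trav9* libraries, and 11.1%, 11.7% and 12.5% in the SKG libraries in the same order. The 6 libraries thus lay close together, whatever the amplicon and genotype. At the segments with the next highest medians, *Traj43* and *Traj9*, the less frequent allele had medians of 1.48% and 1.45% and no library above 4.35%. The WT and SKG mice descended from a cross of BALB/cJ with SKG mice. The nucleotide sequences were not analysed here, so the allele that these mice carried and the accuracy of the calls were not tested.

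**Figure D4:**
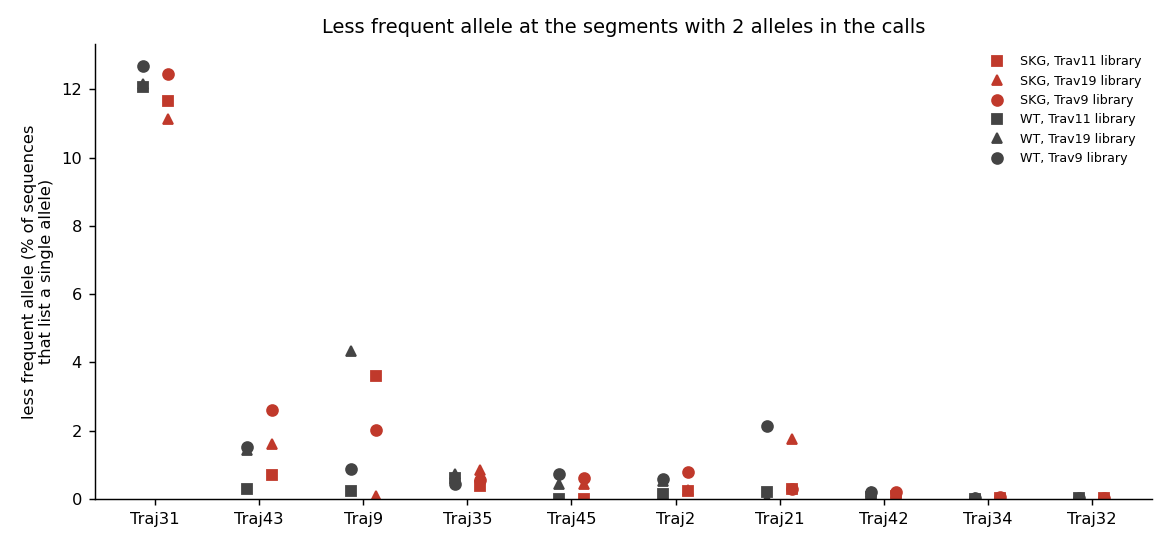
Share (%) of the less frequent allele among sequences that list a single allele, for the 10 segments with 2 alleles in the calls, in WT (dark) and SKG (red) and in the *Trav9* (circles), *Trav11* (squares) and *Trav19* libraries (triangles). All 6 libraries lie between 11.1% and 12.7% at *Traj31* and at or below 4.35% at the other 9 segments.

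Between V genes and between classes, the share of allele 01 spread more widely. Among productive *Traj31* sequences it ranged from 5.56% (*Trav9d-2*, SKG) to 16.9% (*Trav9-2*, SKG) with a median of 10.99%. Among unproductive ones it ranged from 7.07% (*Trav9d-3*, SKG) to 23.7% (*Trav9d-4*, SKG) with a median of 13.9%. Both genotypes were close for productive *Trav19* sequences, at 7.91% in WT (95% CI 7.12 to 8.77) against 8.15% in SKG (95% CI 7.505 to 8.85), and for *Trav9d-3*, at 10.4% and 10.6%. In *Trav11* sequences the share was 12.04% (95% CI 9.99 to 14.4) for WT and 9.87% for SKG (95% CI 8.50 to 11.4).

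The genotypes differed most in opposite directions within the same libraries. With *Trav9d-2* allele 01 was at 16.6% in WT (545 of 3291) and at 5.56% in SKG (48 of 863). With *Trav9d-4* it was at 5.89% in WT (168 of 2854) and at 14.3% in SKG (225 of 1575). Unproductive *Trav19* sequences had 16.1% in WT and 16.8% in SKG, in both genotypes above the productive ones.

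The sequences that listed both alleles of *Traj31* split by V gene. With the *Trav9* genes they made up 14.6% to 24.3% of productive *Traj31* sequences. With *Trav19* they made up 7.31% in WT (324 sequences) and 3.005% in SKG (198 sequences). With *Trav11* only 3 of 825 productive sequences in WT (0.364%) and 4 of 1584 in SKG (0.253%) listed both. A split by amplicon was not particular to *Traj31*. Over whole libraries with every class, *Traj43* listed several alleles in 14.4% (WT) and 18.1% (SKG) with *Trav9*. It did so in 7.71% and 7.95% with *Trav19*, and in 0.276% and 6.79% with *Trav11*. *Traj31* had 19.1% and 19.3%, 8.61% and 2.41%, and 0.396% and 7.28% in the same order. *Traj9* had its highest value with *Trav11* (7.11%, WT).

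In the unproductive class the libraries of an amplicon differed in the *Traj31* sequences that listed both alleles. *Trav11* had 3 of 689 in WT (0.435%) and 194 of 1126 in SKG (17.2%). *Trav19* had 505 of 5147 in WT (9.81%) and 18 of 3393 in SKG (0.531%). Without the sequences that listed both alleles, an alternative chosen after seeing the data, the log2 ratio of *Traj31* with *Trav11* was 0.79 among productive sequences (822 in WT and 1580 in SKG), still past the fold. Among unproductive sequences it was 0.32 (686 in WT and 932 in SKG, 95% CI 0.17 to 0.46), just under the fold, compared with 0.58 when they were counted. Productive sequences that listed allele 02 alone had a log2 ratio of 0.83 (723 sequences in WT and 1424 in SKG) and those with allele 01 alone 0.50 (99 and 156). Among unproductive sequences, allele 02 alone gave 0.27 (603 and 794) and allele 01 alone 0.60 (83 and 138).

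**Figure D5:**
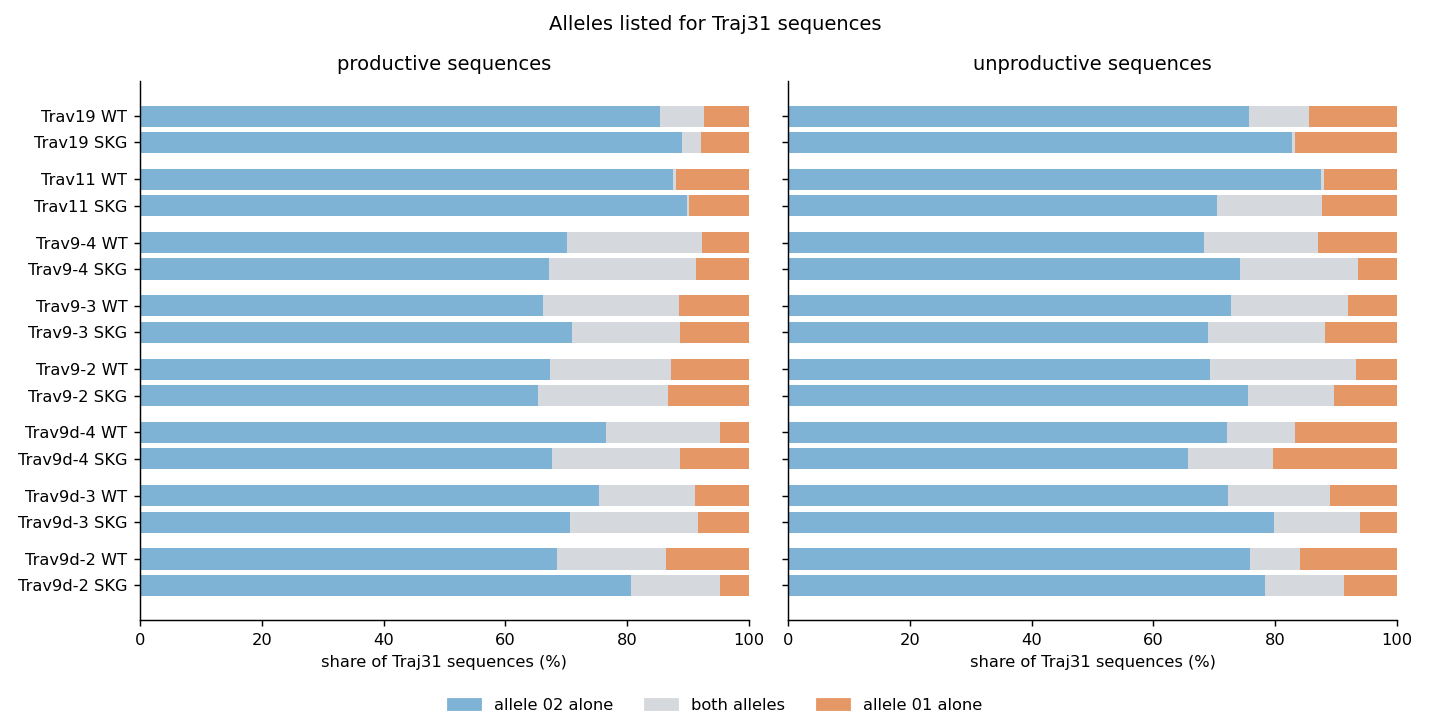
Alleles listed for *Traj31* sequences, as a percentage of the *Traj31* sequences of each V gene and genotype, for productive (left) and unproductive sequences (right): allele 02 alone (blue), both alleles (gray) and allele 01 alone (orange). The gray part is near 0 for *Trav11* except in unproductive SKG sequences, where it is 17.2%, and small for unproductive *Trav19* sequences in SKG (0.531%).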

How the data were processed

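Amplicon libraries of pre-selection DP thymocytes were analysed, 1 for each of 3 *Trav* amplicons in 2 genotypes, grouped by the labels. According to the methods, the authors ran MiXCR on the read pairs, cut off primers with cutadapt 1.13, dropped identical copies and used IMGT/HighV-QUEST to name V and J genes. Each row deposited by them holds a numbered distinct sequence with its class, V and J calls, and no read count, so a share is neither a share of reads nor of cells.

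Sequences with a single V gene and a single *Traj* gene were counted in Python 3.11.15 with pandas 2.3.3, numpy 2.4.6 and scipy 1.17.1, and drawn with matplotlib 3.10.9. Libraries held 249693 to 1587280 sequences, and 3 sequences corresponded to 0.00119% to 0.00885% of a productive set. Shares have 95% Wilson intervals, differences Newcombe intervals, and log2 ratios and ratios of counts normal intervals on the log scale. The calculations were tested on simulated data. Segments with fewer than 50 sequences over both libraries were left out of ratios. Named are the 4 segments, *Traj33* between them, the 2 segments most like each in share, and other segments with 2 alleles. Members, lists and thresholds were chosen with earlier results of these data known. Segment positions are from GENCODE on NCBIM37, with names matched through the RefSeq table of GRCm38.p6, and *Trav9-3* was not located there. Alternatives changed the class, the V and J filters, the fold, the minimum and the allele filter.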

Additional observations from a re-analysis of the deposited data

Results flagged for a closer look

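*Traj34* had opposite directions in the productive sequences of 2 amplicons. Its log2 ratio of SKG to WT share was 0.40 with *Trav11* and -0.59 with *Trav19*. The difference between the amplicons was not tested, since each rests on 1 library per genotype.

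The *Trav19* libraries also held sequences of another V gene, *Trav4d-3*, with 2176 productive sequences in WT and 3423 in SKG that listed a single *Traj* gene. *Traj32* took 3.95% of them in WT and 3.24% in SKG, and *Traj31* took 3.54% in WT and 1.08% in SKG. *Traj34* took 2.22% and *Traj35* 0.497% in SKG, whereas WT had 0 *Traj34* sequences, which allows a share of up to 0.138%, and *Traj35* at 0.0460%, a single sequence. Such gaps were common with this V gene. Of 30 segments with at least 50 productive sequences over both libraries, 28 (93.3%) were past the fold in either direction. WT listed 29 segments in all and SKG 38. The *Trav4d-3* sequences belong to no comparison above.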

How the results depend on the processing

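The functionality class moved the results most. For the combined share of the 4 segments, SKG minus WT, unproductive sequences gave -0.235 percentage points with *Trav19* (productive 0.702), 0.211 with *Trav11* (3.16), 1.08 with *Trav9d-3* (-0.413) and 1.73 with *Trav9d-4* (-1.65), and sequences of every class gave 0.410 with *Trav19*, 1.85 with *Trav11* and 0.0354 with *Trav9d-3*. The direction thus reversed with *Trav19*, *Trav9d-3* and *Trav9d-4*. Among log2 ratios past the fold in productive sequences, the sign changed for *Traj31* with *Trav19* (-0.16) and for *Traj34* with *Trav9d-4* (0.18). Smaller ratios changed sign as well. Both classes had the same sign with 5 of 8 V genes for *Traj31*, *Traj32* and *Traj34*, and 4 of 8 for *Traj35*. At 1.5-fold, 8 segments were counted with *Trav11* instead of 20 and 3 with *Trav9d-3* instead of 16. For allele 01 of *Traj31*, unproductive sequences gave 16.1% (WT) and 16.8% (SKG) with *Trav19*, 14.8% (SKG) with *Trav11*, and 13.2% (WT) and 7.07% (SKG) with *Trav9d-3*. Every class together gave 12.2% and 11.1% with *Trav19*, 11.7% (SKG) with *Trav11*, and 11.5% and 9.29% with *Trav9d-3*. Keeping sequences that list both alleles in the denominator gave 8.78% and 8.39% with *Trav9d-3*. The cause was not tested. Of 32 log2 ratios of single segments, 25 moved beyond counting error in the unproductive class, beside the 2 past the fold that changed sign. In every class together, 16 moved. Allowing other V genes beside the target moved 1 of 8 combined shares and 1 of 32 log2 ratios. Taking the first-listed *Traj* gene moved none of 8 combined shares and 32 log2 ratios beyond counting error, and adding nothing to the counts moved none of the 32 log2 ratios. Leaving out *Traj31* sequences that list both alleles, chosen after seeing the data, moved 3 of 8 log2 ratios beyond counting error. It reversed none that was past the fold. It brought the productive ratio with *Trav9-3* past the fold (0.35 instead of 0.27) and changed the sign with *Trav9d-3* (-0.07 instead of 0.02). No paired analysis was possible because each group had 1 library. Productive and unproductive shares of the same library often differed beyond their intervals, which cover counting error alone.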
